A study of Mus musculus with 2 samples.

Results

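Zbtb16, Sik1, Per1, Fkbp5, Tsc22d3, Klf9, Nr3c1 and Sgk1 were followed in muscle stem cells, also called satellite cells, before and shortly after muscle injury. They are 8 of the 32285 counted features: the gene of the glucocorticoid receptor and 7 genes known to answer to glucocorticoids or to other stress hormones. They were chosen by name with their lower levels in activated cells already known, so the difference between the libraries over all cells is a description of them and not a finding. Levels were taken in barcodes (droplets) that showed 500 or more genes and drew no more than 10% of their unique molecular identifiers (UMIs) from mitochondrial genes.

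Cells for both libraries came from the tibialis anterior of Pax7 CreERT2/+ ;Rosa26 mTmG/+ mice aged 8 weeks, in which Cre, driven from the Pax7 locus of satellite cells, can switch a fluorescent reporter. The cells were sorted by fluorescence. The QSC library was made from uninjured muscle, for quiescent satellite cells, and the ASC library from activated satellite cells taken 1.5 days after injection of cardiotoxin, which destroys muscle fibres. Cells of several mice were pooled in each library, and all cells passed through enzymatic digestion and sorting. There was 1 library per group, so library and group cannot be told apart and no difference below has a replicate check. No hormone was given or measured, so the hormone state of the animals is not known from these data.

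Glucocorticoids are adrenal steroids that are released in a daily rhythm and under stress. Their receptor, the product of Nr3c1, is held ready in the cytoplasm by Hsp90 and its co-chaperones. Once bound by hormone it enters the nucleus and binds DNA at glucocorticoid response elements, inverted repeats of a short half-site. In skeletal muscle the hormone is best known for slowing protein synthesis, promoting breakdown of contractile protein and shifting fuel use. Several of its targets also answer to other signals: Sik1 and Per1 are classical targets of CREB, the factor activated by cyclic AMP, and Per1 and Klf9 belong to the circadian network.

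The promoter table of RefSeq (GRCm38.p6) held 13 windows for 5 of the 8 genes, and the 250 bases before each start were searched on both strands for the receptor half-site AGAACA, for the full glucocorticoid response element (this half-site and its reverse complement with 3 bases between them), the CREB core TGACGT, the E-box CACGTG and TATAAA. Zbtb16, Sik1 and Nr3c1 had no entry. The windows of Sgk1, Per1 and Klf9 that held the full element or a CREB core are shown, because these are the elements named for the hormone and for cyclic AMP. All 3 lie on the plus strand, at chr10:21993640-21993889 (Sgk1), chr11:69099902-69100151 (Per1) and chr19:23140976-23141225 (Klf9). In GENCODE M21 the Sgk1 and Per1 windows overlap no exon and lie in introns of transcripts with an earlier start, and the Klf9 window ends at the base before the gene. Capitals mark the response element, its half-site and the CREB core.
Sgk1: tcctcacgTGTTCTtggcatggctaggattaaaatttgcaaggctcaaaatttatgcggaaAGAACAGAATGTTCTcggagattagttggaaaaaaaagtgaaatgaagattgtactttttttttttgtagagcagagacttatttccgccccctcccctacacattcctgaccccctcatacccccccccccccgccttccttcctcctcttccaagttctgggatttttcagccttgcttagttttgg
Per1: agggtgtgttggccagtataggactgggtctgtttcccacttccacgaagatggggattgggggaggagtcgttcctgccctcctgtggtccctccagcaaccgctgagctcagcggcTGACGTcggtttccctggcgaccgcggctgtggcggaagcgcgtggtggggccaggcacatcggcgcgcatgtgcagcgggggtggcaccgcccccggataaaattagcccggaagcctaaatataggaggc
Klf9: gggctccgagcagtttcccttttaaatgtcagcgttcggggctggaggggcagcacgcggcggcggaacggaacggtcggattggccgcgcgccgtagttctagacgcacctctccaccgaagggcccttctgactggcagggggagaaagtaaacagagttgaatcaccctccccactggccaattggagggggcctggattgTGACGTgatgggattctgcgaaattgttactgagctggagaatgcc

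The full element stands 189 bases before this Sgk1 start, with 1 more half-site 242 bases before it, overlapping an E-box at 246. The element contains the half-sites at 189 and 180. Over all 32851 windows of this length in the table, 3 (0.00913%) hold the full element. They belong to Sgk1, Acnat2 and Gm35041, and the latter 2 had 0 UMIs in both libraries. The CREB core stands 132 bases before the Per1 start and 46 bases before the Klf9 start. It is found in 6.47% of all windows, so 2 genes with it are a description and no more. A half-site alone occurs in 16.1% of windows. Among the other windows of these genes it is found 185 bases before a start of Tsc22d3 and 195 and 13 bases before 2 further starts of Sgk1. The E-box, in 6.02% of all windows, is found 169 bases before the Fkbp5 start and 166 bases before another Per1 start. TATAAA, in 12.4% of all windows, stands 28 and 11 bases before 2 starts of Sgk1. A match of letters is not a bound site, and no binding was measured.

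After filtering, 516 QSC barcodes with 1162091 UMIs and 1468 ASC barcodes with 8895815 UMIs remained, with medians of 2155 and 3502 UMIs. They fell into 3 classes. Contractile-high barcodes, which took at least 5% of their UMIs from 10 fibre genes, made up 104 QSC and 947 ASC barcodes. Clusters named as non-muscle types held 43 and 116. The remainder, called contractile-low here, held 369 QSC barcodes (median 2222 UMIs) and 405 ASC barcodes (median 8484 UMIs) and is the class nearest to the sorted cells: Pax7, the satellite cell factor, stood there at 214 CPM (UMIs per 1000000) in the QSC and 29.9 CPM in the ASC library, and Myog, a differentiation factor, at 34.3 and 951 CPM. In contractile-high barcodes Pax7 stood at 9.32 and 2.28 CPM, so these go against the label of muscle stem cells. Levels, shares and list counts are given for both classes, and pairs of genes and the split by early-response genes for contractile-low barcodes alone. Within the contractile-low class, 218 of the QSC barcodes lay in cluster 2, which carries quiescent satellite cell markers, while 204 of the ASC barcodes lay in cluster 4, which could not be named, so the class does not hold matched cells. The 2 libraries shared 2 of the kept barcode sequences.

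All 8 genes were lower in the ASC library when UMIs were summed over all kept barcodes, and 7 of them, all but Sgk1, by at least 2-fold (log2 ratio of -1 or below). Of the 11189 genes with at least 20 UMIs over both libraries, 23.8% were lower and 15.8% higher by that much. Within contractile-low barcodes the same 7 genes passed that size, against 23.3% of 9927 genes lower and 18.3% higher. Since the genes were chosen on this contrast, nothing is read from these counts. All ratios are of CPM, and their exact 95% intervals cover counting error only. The median gene had a log2 ratio of -0.13 over all kept barcodes, and TMM scaling, which sets the bulk of genes to be equal, raises every log2 ratio there by 0.31. With it 17.4% of genes were lower and 22.9% higher over all kept barcodes, and Tsc22d3 no longer passed the 2-fold limit, which left 6 of the 8 genes. In contractile-low barcodes it gave 16.7% lower and 25.2% higher and kept the 7. Relative to the median gene, the log2 ratios of the 8 genes ran from -4.10 (Sik1) to -0.44 (Sgk1).

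**Figure D1:**
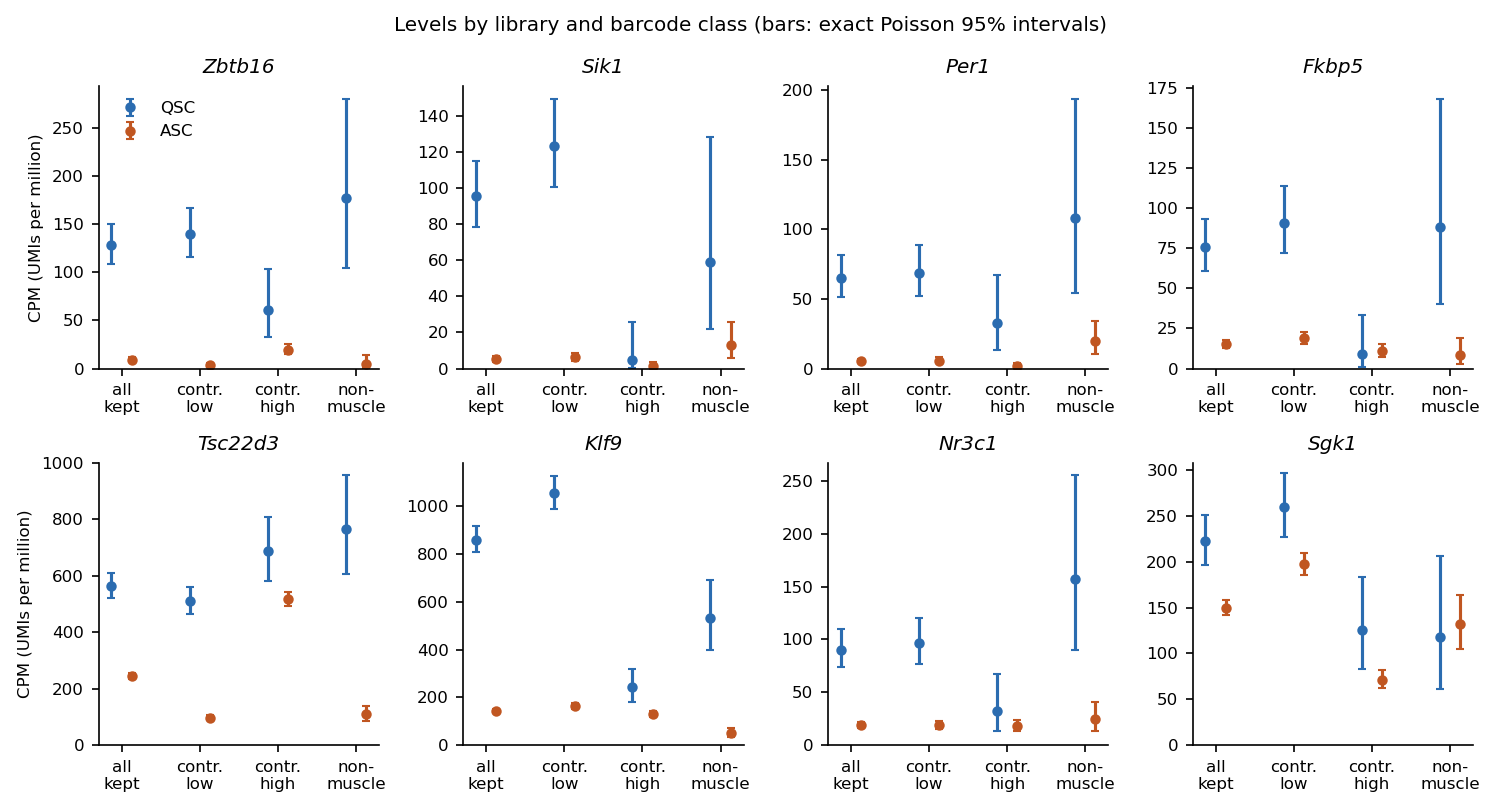
Level of each gene in CPM (y axis, each panel with its own scale from 0) for the QSC library (blue) and the ASC library (orange), over all kept barcodes and in the contractile-low, contractile-high and non-muscle classes; bars are exact Poisson 95% intervals, which cover counting error only. In the contractile-low class every gene was lower in the ASC library, while Tsc22d3 stood at 517 CPM in contractile-high ASC barcodes.

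Zbtb16 (chromosome 9, 48654297 to 48836222, minus strand, GRCm38), which encodes the transcriptional repressor PLZF and is one of the steepest hormone-induced genes in many tissues, showed the widest gap in contractile-low barcodes. It stood at 139.5 CPM (95% interval 115 to 167, 118 UMIs) in the QSC library and 3.84 CPM (2.34 to 5.92, 20 UMIs) in the ASC library. The log2 ratio was -5.18 (-5.95 to -4.49), a 36.4-fold difference. Cluster 4 carried most of the 20 ASC UMIs, and without it the log2 ratio was -6.66, while a mean that weights cells equally gave -4.05. Over all kept barcodes the levels were 128 and 9.33 CPM, a log2 ratio of -3.78 (-4.19 to -3.38). Contractile-high barcodes held 72.3% of the gene's ASC UMIs but 8.72% of its QSC UMIs.

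Klf9 (chromosome 19, 23141226 to 23168134, plus strand), a zinc finger factor that restrains proliferation in several cell types and oscillates with the clock, had a level in contractile-low barcodes of 1057 CPM (989 to 1129, 894 UMIs) in QSCs against 163 CPM (152 to 174, 848 UMIs) in ASCs. The intervals lie far apart, with a log2 ratio of -2.70 (-2.84 to -2.56). Leaving out cluster 4 widened it to -3.66 and weighting cells equally narrowed it to -1.85. Over all kept barcodes Klf9 stood at 861 and 143 CPM, a log2 ratio of -2.58.

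Per1 (chromosome 11, 69095217 to 69109960, plus strand), a repressor of the core circadian loop, stood at 68.6 CPM (52.1 to 88.6, 58 UMIs) in contractile-low QSC barcodes and 5.75 CPM (3.88 to 8.21, 30 UMIs) in the ASC ones. Its log2 ratio was -3.58 (-4.26 to -2.92) and, over all kept barcodes, -3.60 (-4.15 to -3.06). The gap was thus about the same over the whole library as in the contractile-low class. The time of day at which the muscles were taken is not given in the sources used here, and for a clock gene it cannot be told apart from the library.

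The 2 kinases of the group lay far apart. Sik1 (chromosome 17, 31844250 to 31855804, minus strand) encodes a salt-inducible kinase that holds CREB coactivators and class IIa histone deacetylases in the cytoplasm. In contractile-low barcodes it stood at 123 CPM (100.5 to 149, 104 UMIs) in the QSC library and at 6.14 CPM (4.2 to 8.66, 32 UMIs) in the ASC library, a log2 ratio of -4.32 (-4.94 to -3.74). Among QSC barcodes this class held 93.7% of its UMIs. Sgk1 (chromosome 10, 21882184 to 21999903, plus strand), a kinase related to Akt that acts on ion transport and muscle mass, stood at 260.1 CPM (227 to 297, 220 UMIs) and 198 CPM (186 to 210.1, 1031 UMIs). That is a log2 ratio of -0.40 (-0.61 to -0.18), which TMM scaling moved to -0.095 (-0.31 to 0.12) and leaving out the 2% of barcodes with most UMIs to -0.19 (-0.40 to 0.032), both within counting error of 0. Among all genes tested in this class Sgk1 lay at percentile 40.6 by log2 ratio and Sik1 at percentile 0.181. Sgk1 was the gene of the group with the smallest difference in this class. The full response element shown above stands in only 1 of its promoter windows, and Zbtb16, Sik1 and Nr3c1 had no window to search. The relation of the element to these levels was not tested.

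Tsc22d3 (chromosome X, 140539528 to 140600659, minus strand), also known as Gilz, encodes a leucine zipper protein that restrains NF-kB and AP-1 and is widely used as a readout of the receptor. Its level in contractile-low barcodes was 509.6 CPM (463 to 560.0, 431 UMIs) against 97.0 CPM (88.8 to 106, 506 UMIs), a log2 ratio of -2.39 (-2.58 to -2.20). Over all kept barcodes the log2 ratio was -1.22 (-1.34 to -1.09), from 564 to 243 CPM, and 73.5% of its ASC UMIs lay in contractile-high barcodes. Fkbp5 (chromosome 17, 28399094 to 28517527, minus strand), a co-chaperone of Hsp90 that lowers the hormone affinity of the receptor and so closes a feedback loop, stood at 91.0 CPM (71.8 to 114, 77 UMIs) and 18.8 CPM (15.3 to 22.9, 98 UMIs). The log2 ratio was -2.28 (-2.72 to -1.83). Fkbp5 overlaps the counted gene AC154912.5 on its own strand and AC154912.1 on the other, so its counts are less certain.

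Nr3c1 (chromosome 18, 39410545 to 39519421, minus strand), the receptor itself, was lower in ASCs as well. In contractile-low barcodes it stood at 96.9 CPM (77.1 to 120.3, 82 UMIs) in the QSC and 19.0 CPM (15.4 to 23.1, 99 UMIs) in the ASC library. The log2 ratio of -2.35 (-2.79 to -1.91) lay within the interval of Fkbp5 and of Tsc22d3. Over all kept barcodes it was -2.25 (-2.61 to -1.88), from 90.4 to 19.0 CPM. With at most 1% mitochondrial UMIs, which leaves 4 QSC UMIs of the gene, the interval includes 0 (-1.79 to 1.57).

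Contractile-high barcodes showed smaller differences for most of the group. Only 6 of the 8 genes reached 20 UMIs over both libraries there, and 1 of them, Zbtb16, was at least 2-fold lower, against 10.5% of 6460 genes lower and 21.4% higher. Zbtb16 stood at 60.6 CPM (13 UMIs) and 19.6 CPM (60 UMIs), a log2 ratio of -1.63 (-2.51 to -0.64). Klf9 had a log2 ratio of -0.90 (-1.32 to -0.46) and Tsc22d3 one of -0.41 (-0.65 to -0.15), both with intervals that do not overlap those of the contractile-low class. Tsc22d3 stood there at 685 and 517 CPM, its 2 levels lying closer than in the contractile-low and non-muscle classes. Sgk1, at 126 and 71.4 CPM, had a log2 ratio of -0.82 (-1.40 to -0.18), whose interval overlaps that of the contractile-low class. Nr3c1 (-0.86, -2.0 to 0.52) and Fkbp5 (0.21, -1.76 to 3.31) had intervals that include 0, on 7 and 2 QSC UMIs. Per1, like Sgk1, was further from 0 here than in the contractile-low class. On 7 QSC and 6 ASC UMIs its log2 ratio was -4.06 (-5.91 to -2.26), an interval that overlaps that of the contractile-low class. Sik1 had 1 and 5 UMIs, too few to place it on either side. Median mitochondrial shares in this class were 0.719% and 0.175%, against 4.90% and 2.32% in contractile-low barcodes, and the part of RNA quality in these differences was not tested. A limit of 1% mitochondrial UMIs leaves 86 QSC barcodes. That stricter limit is the one in the study's methods. Under it the log2 ratios over all barcodes of Fkbp5 (0.19, -1.75 to 3.28, on 2 QSC UMIs), Sik1 (-1.07, -3.92 to 4.39) and Nr3c1 (-0.35, -1.79 to 1.57) had intervals that include 0. Those of Zbtb16 (-1.96), Klf9 (-1.15) and Tsc22d3 (-0.72) were smaller, and those of Per1 (-3.24, on 6 QSC and 12 ASC UMIs) and Sgk1 (-0.66) changed little. Under this limit Zbtb16, Klf9 and Tsc22d3 had 12, 46 and 136 QSC UMIs, near the 13, 52 and 147 of contractile-high QSC barcodes. These ratios are thus not a check on contractile-low barcodes.

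**Figure D2:**
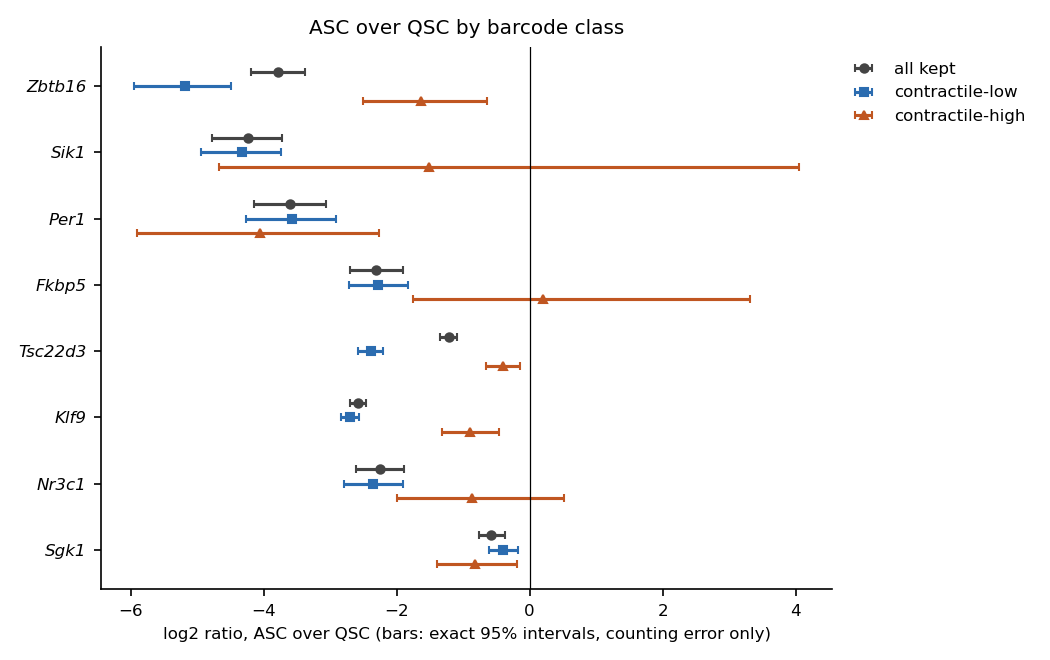
Log2 ratio of ASC over QSC level (x axis) for each gene (y axis) over all kept barcodes (grey circles), contractile-low barcodes (blue squares) and contractile-high barcodes (orange triangles); bars are exact 95% intervals for counting error, and the line at 0 marks equal levels. The contractile-low ratios run from -5.18 for Zbtb16 to -0.40 for Sgk1, and the contractile-high intervals of Sik1, Fkbp5 and Nr3c1 cross 0.

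The cells outside muscle were few, with 16 QSC and 86 ASC macrophage/monocyte-like barcodes. Tsc22d3, which is induced by glucocorticoids in macrophages too, stood there at 1102 CPM (36 UMIs) in the QSC and 108 CPM (59 UMIs) in the ASC library, a log2 ratio of -3.35 (-3.97 to -2.71). Fkbp5, Sik1, Nr3c1, Per1 and Klf9 had log2 ratios from -4.06 to -1.80 on 4 or 5 QSC UMIs each. Lower ASC levels of these genes were thus seen in these barcodes too, for most on few QSC UMIs. Sgk1 went the other way, with 0 UMIs in the QSC (0 to 113 CPM) and 69 UMIs (126 CPM, 98.2 to 160) in the ASC library. The same was not counted over all genes in this class. Whether its 2 sides hold matched cells was not tested. In the 17 fibroblast-like QSC barcodes Zbtb16 stood at 244 CPM (134 to 410.0, 14 UMIs), while the ASC library held 1 such barcode. Fibroblast markers as a list took 0.421% of UMIs in contractile-low QSC barcodes and 0.108% in ASC ones, and macrophage/monocyte markers 0.00804% and 0.0128%. All 8 fibroblast markers had UMIs in the QSC library and all but Pdgfra in the ASC library. Their part in the levels of the 8 genes was not tested.

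Levels were next set out over the 13 combinations of cluster and library with at least 20 barcodes. The clusters were built after the 8 genes and the pathway lists below had been taken out of the variable genes. All 8 genes had their highest level in a QSC cluster. They were chosen with lower ASC levels known, and the same was not counted over all genes, so nothing is read from that count. In cluster 2, quiescent satellite cell-like, the QSC levels were 1084 CPM for Klf9, 403 for Tsc22d3, 143 for Zbtb16 and 139 for Sik1. Tsc22d3 was the only gene of the group for which this was the lowest of the 4 QSC clusters, with 833 CPM in cluster 5, 709 in cluster 0 and 665 in the fibre-rich cluster 6. Those 3 do not differ beyond counting error, and cluster 2 (351 to 461) lies below them. In cluster 6 the interval of Sik1 (4.85 CPM, 0.123 to 27.0) lay below those of the other QSC clusters, and so did that of Klf9 (209 CPM, 151 to 281).

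Among ASC clusters, Klf9 was highest in cluster 4, at 357 CPM (328 to 388), then in the activated satellite cell-like cluster 9, at 251 CPM (213 to 294), and lowest in cluster 5, at 37.3 CPM (30.05 to 45.8). Clusters 4 and 9 also led for Sgk1, at 274 and 264 CPM, which did not differ beyond counting error and overlap the 252 CPM of QSC cluster 2. The 10 leading genes of cluster 5 include Rrm2, Cdc20 and Birc5, which act in dividing cells. Clusters 0, 3 and 8 took medians of 18.5%, 16.4% and 13.9% of UMIs from fibre genes. Sgk1 was lowest in clusters 3 and 8, at 30.8 CPM (19.3 to 46.6) and 21.5 CPM (8.64 to 44.3). Tsc22d3 ran the other way: clusters 0 and 3 stood at 569 and 560.0 CPM, not apart from each other, and cluster 5 at 84.5 CPM. Zbtb16 stood at 24.6, 22.9 and 22.4 CPM in clusters 8, 0 and 3 and at 2.05 CPM in cluster 5. Sik1, Per1, Fkbp5 and Nr3c1 had at most 50 UMIs in any ASC cluster, and none of their neighbouring levels in the order of clusters was apart.

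Cluster 5 held 81 QSC and 131 ASC barcodes and so allowed a look within 1 cluster. There Klf9 stood at 898 and 37.3 CPM, Zbtb16 at 125 and 2.05 CPM, and Tsc22d3 at 833 and 84.5 CPM, with intervals well apart. Sgk1 stood at 328 CPM (243 to 432) in the QSC and 113 CPM (100.2 to 127) in the ASC barcodes, a wider gap than over the whole class. Fkbp5 (118 and 20.5 CPM) was also lower in the ASC barcodes, and for Nr3c1 the intervals overlapped (22.6 to 103 and 13.5 to 24.7 CPM). Of the ASC barcodes in this cluster, 46 were contractile-high, while all 81 QSC barcodes were contractile-low. Depth differed too: Klf9 had 137 UMIs at its QSC level and 91 UMIs at its far lower ASC level. At resolution 1 a cluster led by several of the same genes held 47 QSC and 83 ASC barcodes. Another, led largely by mitochondrial genes, held 34 and 51. The 2 sides of cluster 5 are thus not matched cells.

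**Figure D3:**
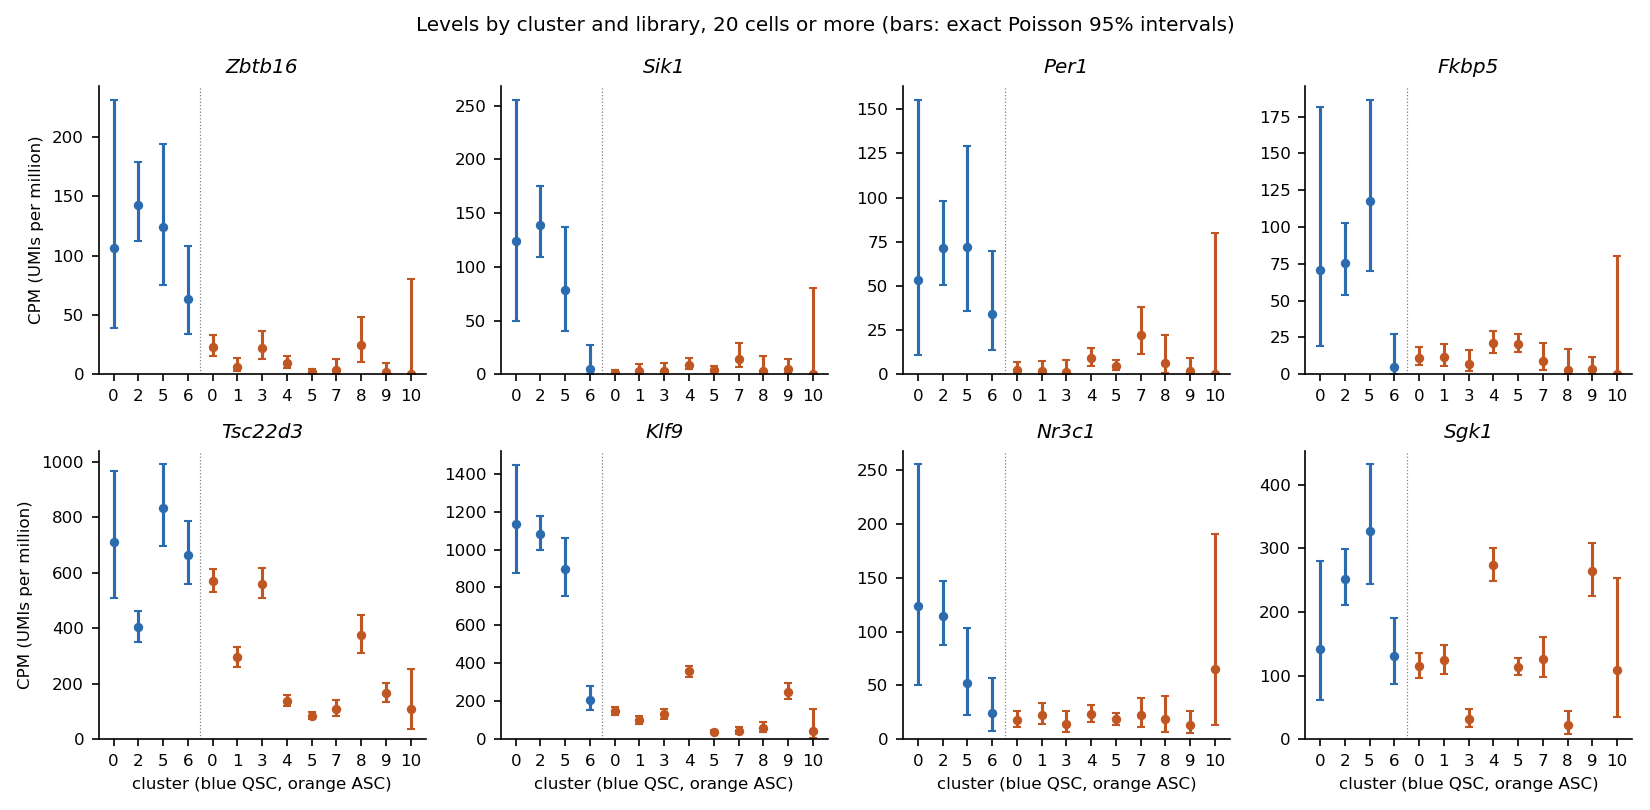
Level of each gene in CPM (y axis, scales differ between panels and start at 0) in each cluster (x axis) with at least 20 barcodes in the QSC (blue, left of the dotted line) or ASC library (orange, right); bars are exact Poisson 95% intervals. The levels of Zbtb16, Sik1 and Klf9 in QSC clusters 0, 2 and 5 lie above all their ASC levels, and Sgk1 in ASC clusters 4 and 9 reaches 274 and 264 CPM.

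Shares of barcodes with at least 1 UMI were compared after each barcode was thinned to 1200 UMIs, which left 366 QSC and 400 ASC barcodes of the contractile-low class, 3 and 5 shallower ones being left out. Klf9 was found in 65.3% of QSC barcodes (95% interval 60.2 to 70.2) and 28.5% of ASC barcodes (24.1 to 33.2). For Zbtb16 the shares were 14.5% (11.04 to 18.5) and 1.25% (0.407 to 2.89), and for Tsc22d3 36.3% and 14.5%. The intervals were apart, with the QSC share higher, for 6 of the 8 genes. The same was not counted over all genes, and these were chosen with lower ASC levels known, so nothing is read from this count. The intervals of Nr3c1 (7.92% and 3.25%) overlapped slightly. Sgk1 was found in 21.9% and 25.2%, which goes against its CPM and leaves the order of the libraries undecided. In barcodes of full depth the shares were 83.2% and 72.6% for Klf9 and 19.2% and 19.5% for Fkbp5, at medians of 2225 and 8895 UMIs. In contractile-high barcodes, 90 QSC and 860 ASC ones at this depth, Tsc22d3 was found in 45.6% and 43.6%, Klf9 in 21.1% and 12.8% and Zbtb16 in 6.67% and 3.02%, with overlapping intervals for each of the 3. No cell type in these libraries is known to lack these genes, so free RNA could not be gauged from one and its part in the shares was not tested. At the same thinned depth, ASC macrophage/monocyte-like barcodes (median 6436 UMIs) held Klf9 in 2 of 84 and Zbtb16 in 0 of 84, which allows a share of up to 3.57%. In the ASC library the contractile-low shares of Zbtb16, Sik1, Per1 and Fkbp5, 1.25%, 0.25%, 0.5% and 1.75%, lay within or below the intervals of these macrophage/monocyte-like barcodes. In the QSC library, at 14.5%, 11.5%, 8.47% and 11.5%, they lay within the wide intervals of 12 such barcodes too.

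How many of the 8 genes a single barcode showed was counted at the same depth. Of the contractile-low QSC barcodes 9.84% had none and 22.7% had 3 or more, with a mean of 1.77 genes. Of the ASC barcodes 44.0% had none and 1.75% had 3 or more, with a mean of 0.752. In contractile-high barcodes the means were nearer, 0.956 and 0.715, with none of the genes in 33.3% and 42.0%. The genes were chosen with lower ASC levels known, and no other set of genes was counted in this way. Nothing is read from the differences between the libraries in these counts. Whether the genes shared barcodes beyond their own frequencies was then described pair by pair. In the QSC library 27 of the 28 pairs had a product of shares of at least 3 barcodes, and 15 of the 27 lay above that product and 12 below. Zbtb16 and Tsc22d3 met in 26 barcodes against a product of 19.3, Sik1 and Fkbp5 in 9 against 4.82, and Klf9 and Tsc22d3 in 89 against 86.8. These 3 pairs were picked after their values were seen, and over the 27 pairs neither side of the product was much the more common. In the ASC library 5 pairs had enough barcodes, of which Klf9 and Sgk1 lay above it, at 35 barcodes against 28.8.

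Early-response genes such as Fos and Egr1, which cells can switch on during enzymatic isolation, took a median of 3.57% of UMIs in contractile-low QSC barcodes and 0.47% in ASC barcodes. Contractile-low barcodes were therefore split within each library at the median share of 25 such genes, none of them among the 8. In the QSC library the 184 upper barcodes (median share 4.62%, 2165 UMIs) and 185 lower ones (2.53%, 2267 UMIs) had nearly equal levels of most genes. Klf9 stood at 1066 and 1048 CPM, a log2 ratio of upper over lower of 0.025 (-0.17 to 0.22). That of Tsc22d3 was 0.056 (-0.22 to 0.34), of Zbtb16 0.041 (-0.51 to 0.59) and of Sik1 0.034 (-0.55 to 0.62). The intervals of Per1, Fkbp5 and Nr3c1 also held 0. Only Sgk1 was higher in the upper barcodes beyond counting error, with 319.7 CPM there and 204 CPM in the lower ones (0.65, 0.25 to 1.05).

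The ASC library gave another picture. Its 202 upper barcodes (median share 1.15%) had a median of 5576 UMIs and its 203 lower ones (0.16%) a median of 15277, so depth moves with the split. The class also mixes clusters, with 204 ASC barcodes of cluster 4 and 85 of cluster 5. In the ASC library Klf9 stood at 357 CPM in the first and 37.3 CPM in the second. The split was not made within clusters, so the part of cell state was not tested. Klf9 stood at 371 CPM in the upper and 75.3 CPM in the lower barcodes, a log2 ratio of 2.30 (2.09 to 2.51). Zbtb16 (3.76, 1.97 to 6.17, on 17 and 3 UMIs), Per1 (1.45, 0.32 to 2.60), Tsc22d3 (0.87, 0.61 to 1.13) and Sgk1 (0.82, 0.64 to 1.0) were higher in the upper barcodes too. The intervals of the other 3 included 0, with Sik1 at 0.89 (-0.22 to 1.98), Nr3c1 at 0.45 (-0.18 to 1.06) and Fkbp5, at 18.2 and 19.0 CPM, at -0.065 (-0.75 to 0.59). The upper ASC barcodes lay below the lower QSC barcodes for all genes but Sgk1, with 371 against 1048 CPM for Klf9. For Sgk1 the order was reversed, at 285 against 204 CPM. These 2 parts are not matched in early-response share (medians 1.15% and 2.53%). The genes were also chosen with lower ASC levels known, so nothing is read from this order.

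**Figure D4:**
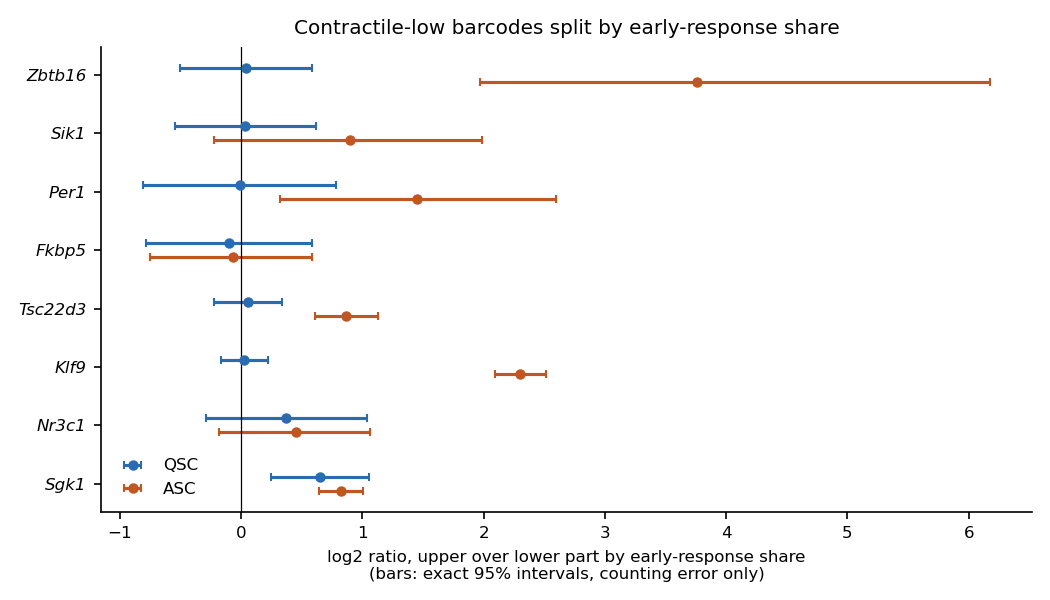
Log2 ratio of the level in barcodes with a higher over those with a lower share of early-response UMIs (x axis), within the contractile-low barcodes of the QSC (blue) and ASC (orange) library, for each gene (y axis); bars are exact 95% intervals for counting error. QSC values lie near 0 except Sgk1 at 0.65, while ASC values reach 2.30 for Klf9 and 3.76 for Zbtb16.

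Other genes of the hormone's pathway were read from lists drawn up by function, but with earlier results of these data known, so the counts are a description. The limits were again 20 UMIs and a 2-fold difference. Log2 ratios are over all kept barcodes unless another class is named. Beside the counts of this and the later lists stand 23.8% of all genes lower and 15.8% higher over all kept barcodes. These shares were 23.3% and 18.3% in contractile-low and 10.5% and 21.4% in contractile-high barcodes. Of 26 further glucocorticoid targets 24 had enough UMIs, of which 16 were lower in the ASC library and 1 higher, with a median log2 ratio of -1.70, against -0.13 for all genes. In contractile-low barcodes it was 20 lower and 1 higher (median -2.01), and in contractile-high barcodes 9 lower and 6 higher of 22 (median -0.37). The lowest were Klf15, an activator of amino acid breakdown (-3.17, -3.70 to -2.64), Pdk4, which shuts pyruvate out of oxidation (-3.04, -3.37 to -2.72), and Foxo3, an atrophy factor (-2.94, -3.38 to -2.49). Klf15 and Pdk4 were lower within both classes, with Pdk4 at 429 and 33.3 CPM in contractile-high barcodes. Dusp1, a phosphatase that curbs MAP kinases, stood at 580.0 and 206 CPM (-1.49, -1.62 to -1.37). At the other end were Lcn2, with 0 QSC and 89 ASC UMIs and at least 3.88-fold higher against a floor of 3 QSC counts, the ubiquitin ligase gene Trim63 (0.35, 0.11 to 0.60) and Angptl4 (0.21, -0.27 to 0.73). Within the classes Trim63 was lower in both, at -0.99 (-1.58 to -0.37) in contractile-low and -0.30 (-0.57 to -0.0095) in contractile-high barcodes. Angptl4 was higher in contractile-low barcodes, at 0.99 (0.41 to 1.62), and stood at -1.64 (-3.06 to 0.12) in contractile-high ones on 5 QSC UMIs. The list's median is the same with Lcn2 at that floor.

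The machinery around the receptor held genes of both directions, with counts in contractile-low barcodes near the 23.3% lower and 18.3% higher of all genes there. Of 18 receptor, chaperone and cofactor genes, 9 were lower and 1 higher over all kept barcodes (median -0.88), and 5 lower and 3 higher of 17 in contractile-low barcodes (median -0.54). In contractile-high barcodes 0 were lower and 4 higher of 11 (median 0.57), and with TMM scaling 6 were lower and 3 higher over all kept barcodes. The chaperone genes Hsp90aa1 (1.28, 1.13 to 1.43), Hsp90ab1 (0.99, 0.92 to 1.07) and Ptges3, the p23 co-chaperone (0.96, 0.73 to 1.20), were higher in the ASC library. The coactivator genes Ncoa3 (-2.02, -2.55 to -1.47) and Ep300 (-1.94, -2.77 to -1.06) were lower, and so was Nr3c2, the mineralocorticoid receptor, which also binds glucocorticoids (-2.56, -3.86 to -1.21, on 10 and 13 UMIs). Fkbp4, the relative of Fkbp5 that favours receptor transport, was higher, at 151 and 201 CPM (0.41, 0.19 to 0.65). It stood at 0.65 (0.40 to 0.91) in contractile-low and -0.093 (-0.63 to 0.49) in contractile-high barcodes. Ncoa3 and Ep300 were lower in contractile-low barcodes, at -2.44 and -1.72, and had 1 and 0 QSC UMIs in contractile-high ones. Hsd11b1, which regenerates active hormone inside cells, stood at 215 CPM in the QSC and 24.6 CPM in the ASC library (-3.13, -3.40 to -2.86), and in contractile-low barcodes at 284 and 37.4 CPM. H6pd, which supplies its cofactor, had a log2 ratio of 0.54 (-0.57 to 1.90), and Hsd11b2, which inactivates the hormone, had 0 UMIs in both libraries, below 2.58 and 0.337 CPM at a floor of 3 counts.

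Of 13 further clock genes 9 were lower and 0 higher over all kept barcodes (median -1.39), and 10 and 0 in contractile-low barcodes (median -1.93). In contractile-high barcodes 1 of 10 was lower. Per3 (-3.43, -4.29 to -2.60), Cry2 (-3.29, -4.04 to -2.55) and Dbp (-2.33, -2.67 to -1.99) were the lowest, repressors of the loop and an output factor. Arntl, the positive arm of the loop, had a log2 ratio of -0.15 (-1.03 to 0.86) and Nr1d1 of -0.25 (-0.64 to 0.16), both with intervals that include 0. Within the classes Nr1d1 was lower in contractile-low barcodes, at -1.44 (-1.97 to -0.89), and stood at 0.29 (-0.43 to 1.12) in contractile-high ones. Arntl stood at -0.44 (-1.50 to 0.79) in contractile-low barcodes. Around Sik1, 4 of 11 kinase, coactivator and deacetylase genes were lower and 0 higher (median -0.91), beside 23.8% of all genes lower. With TMM scaling it was 2, beside 17.4% of all genes, so the count is near the background. In contractile-low barcodes 6 of 11 and in contractile-high ones 0 of 6 were lower. The lowest were Sik2 (-2.42, -3.27 to -1.54), Crtc3 (-2.29, -2.67 to -1.90) and Hdac4 (-1.26, -1.87 to -0.60). Atf1, a CREB relative (0.40, 0.0038 to 0.82), Stk11, the kinase that activates Sik1 (-0.28, -0.57 to 0.019), and Hdac5 (-0.46, -1.09 to 0.24) were the highest. In contractile-low barcodes Hdac5 was lower, at -1.18 (-1.93 to -0.39), while Atf1 (0.42) and Stk11 (-0.30) changed little. Of 14 paralogs of the 8 genes 10 were lower and 0 higher (median -1.73). In contractile-low barcodes 9 were lower and 0 higher of 13 (median -1.76), and in contractile-high ones 3 lower and 2 higher of 10 (median -0.56). Over all kept barcodes Per3, Klf15 and Nr3c2, named above, were the lowest, and Tsc22d1, a relative of Tsc22d3 (0.84, 0.53 to 1.17) and Sgk3 (-0.43, -1.29 to 0.55) were, with Fkbp4, the highest.

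The 25 early-response genes were mostly lower in the ASC library too, with 22 lower and 1 higher in contractile-low barcodes and a median log2 ratio of -2.40, against -2.55 for the 8. Fosb (-4.27, -4.38 to -4.17), Maff (-3.43, -3.64 to -3.22) and Egr1 (-3.14, -3.26 to -3.03) were among the lower ones there. Fosl1, with 1 and 293 UMIs, was the higher one (5.57, 3.08 to 10.88). Ier5 and Nr4a2, next highest over all kept barcodes, stood at 0.49 (0.033 to 0.97) and -1.27 (-2.08 to -0.40) in contractile-low ones. In contractile-high barcodes 11 were lower and 3 higher of 21 (median -1.07). The part of this programme in the levels of the 8 genes between the libraries was not tested.

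**Figure D5:**
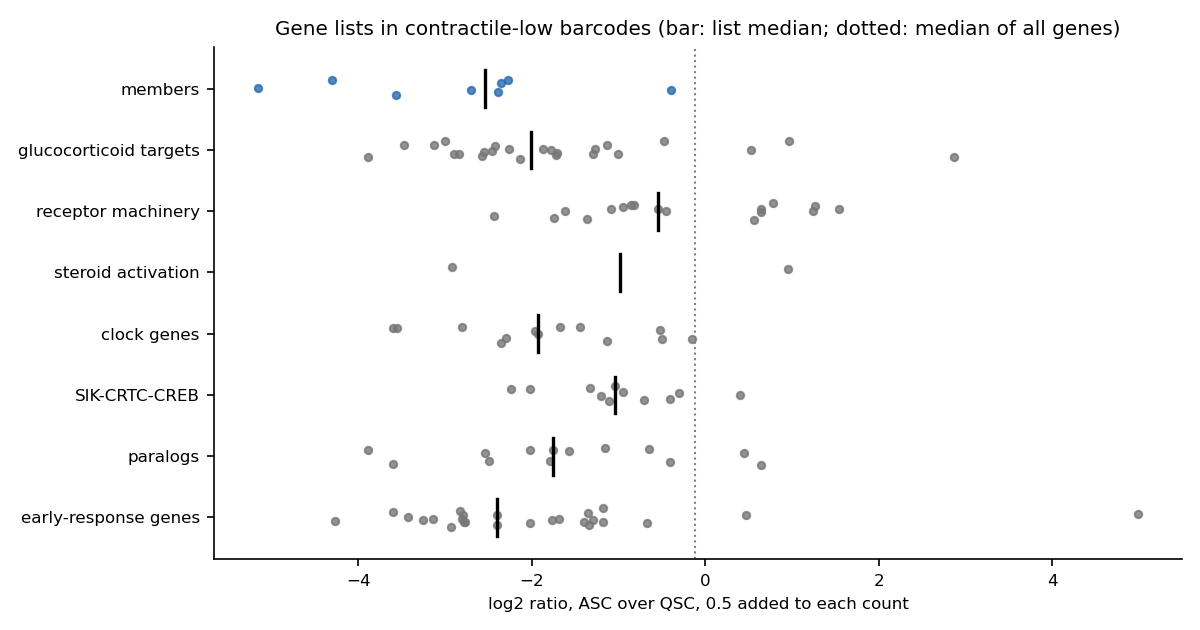
Log2 ratio of ASC over QSC level with 0.5 added to each count (x axis) for each gene (points) of each list (y axis; "members" are the 8 genes described here, in blue) in contractile-low barcodes; black bars are list medians and the dotted line is the median of all genes. Medians run from -2.55 for the 8 genes and -2.40 for early-response genes to -0.54 for the receptor machinery.

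Lastly, the genes with the most similar pattern were sought over the 13 combinations of cluster and library, as Pearson's r of log2(CPM + 10) among 4757 genes with at least 200 UMIs. These points share libraries, depth and clusters, so r is a description. Klf9 came closest to Thra, the thyroid hormone receptor alpha gene (r = 0.99), followed by Nfia (0.96) and Rian (0.96). Fkbp5 was nearest to Notch3 (0.96), Htra1 (0.96) and Igfbp5 (0.95), and among the nearest to Nr3c1 were Rnf167 (0.95) and Shoc2 (0.91). Among the nearest to Sik1 were Gm42418 (0.95) and Fcgrt. The nearest were for Per1 Ensa (0.93), Ly6c1 and Apoe, and for Zbtb16 Cnot4 (0.92), Glul and Gas6. Tsc22d3 lay nearest to Usp2 (0.92), Eif4a2 and Rab18, and Sgk1 to Tmed4 (0.92), Fam120a and Lmo4. Among the 8 genes, r was 0.90 for Sik1 and Fkbp5 and 0.89 for Sik1 and Per1, and lowest for Tsc22d3 and Sgk1, at -0.088. The genes were chosen with lower ASC levels known, so a high r between them in part restates that choice.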

How the data were processed

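The deposited matrices hold raw UMI counts per gene and barcode, which the authors made with Cell Ranger from 10x Genomics 3' v2 libraries (version 6.0.2 in the matrix header, 7.1.0 in the submitters' processing notes, with mm10). UMIs were summed per gene over kept barcodes and divided by the summed total of all genes (CPM). With 1 library per group no test was run. Levels carry exact Poisson intervals, ratios exact conditional binomial intervals and shares Clopper-Pearson intervals, at 95%, for counting error only. Clusters were made with Seurat 5.3.0 after the study's settings (10 principal components, resolution 0.6), and TMM factors with edgeR 4.0.16. The calculation of ratios and intervals was tested on simulated data. No doublet caller was run, and barcodes of very high UMI number were left out as an alternative. Lists name their 3 highest and 3 lowest genes, plus Nr3c2, Hsd11b1, Hsd11b2 and Dusp1, and each of the 8 genes is named with its 3 most similar genes. Some genes that this rule names are not reported here. The genes and lists were chosen with earlier results of these data known. A check that left cluster 4 unnamed was added after seeing the data: its mural markers numbered 3, against 10 of quiescent satellite cells.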

Additional observations from a re-analysis of the deposited data

Results flagged for a closer look

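The ASC over QSC ratio of Sgk1 differed in direction between 2 kinds of barcode. In the 16 macrophage/monocyte-like QSC barcodes it had 0 UMIs, which allows up to 91.8 CPM at 3 counts, and in the 86 ASC ones it stood at 126 CPM (69 UMIs), at least 1.37-fold higher. In contractile-low barcodes its log2 ratio was -0.40 (-0.61 to -0.18), a direction that is not firm, since TMM scaling gave -0.095 (-0.31 to 0.12), leaving out the 2% of barcodes with most UMIs gave -0.19 (-0.40 to 0.032), and the thinned share of barcodes with a UMI was 21.9% in the QSC and 25.2% in the ASC library. The difference between the 2 kinds of barcode was not tested, and the QSC value rests on 16 barcodes of 1 library.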

How the results depend on the processing

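Each group had 1 library, so no replicate could be left out, and all values carry counting error only. No paired analysis was possible because each group had 1 library. The alternatives re-cut the same 2 libraries, and the 8 genes were chosen with lower ASC levels known, so nothing is read from the next count. Of 136 log2 ratios of the 8 genes under alternatives, 135 stayed below 0, some with intervals that include 0. The exception was Fkbp5 over all kept barcodes with at most 1% mitochondrial UMIs, at 0.19 on 2 QSC UMIs. That limit also gave -1.96 for Zbtb16, -1.07 for Sik1, -0.72 for Tsc22d3, -1.15 for Klf9 and -0.35 for Nr3c1. It leaves 86 QSC barcodes, and these values are not a check on contractile-low barcodes. Weighting cells equally gave, over all kept barcodes, -2.93 for Zbtb16, -4.82 for Sik1, -2.74 for Fkbp5, -0.62 for Tsc22d3, -2.30 for Klf9 and -0.88 for Sgk1, and in contractile-low barcodes -4.05 for Zbtb16, -2.76 for Per1, -2.17 for Tsc22d3, -1.85 for Klf9 and -0.14 for Sgk1. TMM scaling gave -0.91 for Tsc22d3, -2.28 for Klf9 and -0.27 for Sgk1 over all kept barcodes, and -2.09, -2.40 and -0.095 in contractile-low barcodes, and in the lists 3 higher genes of the receptor machinery, 2 lower genes around Sik1 and 1 higher paralog. Without the 2% of barcodes with most UMIs Tsc22d3 stood at -1.07 over all kept barcodes and Klf9 at -2.42 in contractile-low ones. With all deposited barcodes Klf9 stood at -2.43, and under a fibre limit of 2% Tsc22d3 at -2.16. Cluster 4 was left out as an alternative chosen after seeing the data. Without it and the non-muscle clusters the ratios were -4.87 for Sik1, -4.20 for Per1, -0.97 for Tsc22d3, -3.08 for Klf9 and -0.94 for Sgk1, and in contractile-low barcodes without it -6.66 for Zbtb16, -2.68 for Tsc22d3, -3.66 for Klf9 and -0.68 for Sgk1. The receptor machinery had 5 lower and 3 higher genes in contractile-low barcodes. The cause of these shifts was not tested. Thinning to 800 or 2000 UMIs and other clustering resolutions kept the counts of genes within 1.5 times.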
